A study of Mus musculus with 7 samples.

Results

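The MEF2 transcription factors and the class IIa histone deacetylases that bind them were examined in mouse embryonic stem cells with and without calreticulin. Members were chosen by gene symbol: all probe sets annotated to Mef2a, Mef2b, Mef2c, Mef2d, Hdac4, Hdac5, Hdac7 or Cabin1. This gave 8 of the 18194 genes named on the array and 24 of its 45101 probe sets. A further probe set annotated to both Mef2b and its neighbour Borcs8 was kept apart. All cells were of the mouse embryonic stem cell line D3. There were 7 libraries, 2 of them wild type and 5 with calreticulin knocked out, each hybridised to its own Affymetrix Mouse 430 2.0 array. Per the labels, a library held pooled cultures and counted as a biological replicate. It is not stated if the knockout libraries came from 1 clone or several, and p-values reflect only how these libraries vary. Libraries are called wild type 1 and 2 and knockout 1 to 5, after their titles.

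MEF2 proteins are MADS-box transcription factors that bind an A/T-rich element, the MEF2 box, and drive muscle, vascular, neuronal and immune gene programmes. Class IIa histone deacetylases have little deacetylase activity of their own. They sit on MEF2, bring in corepressors, and are carried out of the nucleus on 14-3-3 proteins once calcium-dependent kinases phosphorylate them. Cabin1 binds calcineurin and MEF2 and represses MEF2 until calcium-loaded calmodulin displaces it. Calreticulin, the calcium-binding chaperone of the endoplasmic reticulum encoded by Calr, has been placed upstream of calcineurin and MEF2C in heart development, which is the question these members bear on. Most of that control acts on protein location and activity, which an RNA array does not measure.

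The family's own DNA element was present at the start of 2 member genes, Mef2a and Hdac5. These stretches are shown because they carry the sequence that MEF2 proteins bind. RefSeq promoters of GRCm38.p6 matched all 8 genes, with 13 start sites. The MEF2 box was searched on both strands by its consensus, which is its own reverse complement. It was found in 2 of the 13 windows of 300 bases (250 before the start site and 50 after it), and in 3.19% of all 32851 windows of that length. The Mef2a stretch lies on the minus strand at chr7:67372831-67372940, the Hdac5 stretch on the minus strand at chr11:102230163-102230272. Capitals mark the box.
Mef2a: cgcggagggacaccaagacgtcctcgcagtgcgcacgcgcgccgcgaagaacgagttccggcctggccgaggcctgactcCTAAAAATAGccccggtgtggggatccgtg
Hdac5: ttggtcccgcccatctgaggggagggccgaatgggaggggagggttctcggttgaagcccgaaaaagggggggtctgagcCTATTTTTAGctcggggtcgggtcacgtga
The box began at position -2 from the start site in Mef2a and at position -20 in Hdac5. A match is a run of letters, not a measured binding site.

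The signals are MAS5 intensities on a linear scale. Calr, the targeted gene, read 11650 ± 1146 (SD, n = 2) in the wild type and 912 ± 205 (SD, n = 5) in the knockout group (log2 difference -3.68, limma adjusted p = 0.00595). Knockout libraries 2 and 3 differed from all other libraries. They correlated with each other at 0.985 and with the others at 0.843 to 0.902 (Pearson, across probe sets), and their log2 ratios of 3′ to 5′ Actb probe sets were 0.79 and 0.89, against 1.46 to 2.08 in the others. All 10 embryonic stem cell markers examined were above the signal filter, with a summed signal of 85618 to 99947 in wild type and 80194 to 112938 in knockout libraries. The single stem cell markers did not move together. Pou5f1, the gene of the pluripotency factor Oct4, read 4891 and 4687 in knockout libraries 2 and 3. In the other 5 it read 8770 to 11726. Nanog, Esrrb and Utf1 were also lowest in that pair, and Zfp42 was lowest in knockout library 2 alone. Tdgf1 was instead highest in the pair (14287 and 15929), and Sox2, Klf4, Dppa4 and Dppa5a lay within the other values. Summed fibroblast markers (10 of 11 above the filter, Lum under it) were 5340 and 4882 in knockout libraries 2 and 3. They were 735 to 1149 in the other knockout libraries and 1480 to 1605 in wild type. Col1a2, S100a4 and Dcn were the largest parts of the sum in knockout libraries 2 and 3. Thy1 was not raised there (310 and 292, against 124 to 405 in the other 5). Endothelial markers (6 of 7 above the filter, Tie1 under it) summed to 3176 and 3463 in knockout libraries 2 and 3 and 1214 to 1912 in the other 5. Pecam1 (2070 and 2377, against 264 to 891) and Tek carried that sum, while Cdh5, Kdr and Flt1 were not raised there. Blood markers (4 of 6 above the filter, Ptprc and Tyrobp under it) summed to 3958 and 3755 in that pair, 1085 to 1315 in the other knockout libraries and 1163 to 1195 in wild type. There Laptm5 alone was high (3451 and 3399, against 431 to 790), whereas Coro1a and Cd79b were lowest in the pair and Spi1 lay within the other values. Fewer cells of a type and less RNA per cell cannot be told apart in such samples.

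Mef2a had the largest fitted difference of the 8 genes, without passing the test. With 4 of its 5 tested probe sets the knockout mean lay above the wild type mean, by 0.79 to 1.21 on the log2 scale. For every tested probe set of the other 7 genes, the 95% interval of the difference included 0. No member passed the test: 0 of the 17 probe sets above the signal filter had a limma adjusted p under 0.05, where 0.0296% of all 27022 tested probe sets did. The adjusted p ran from 0.575 to 0.992. At an unadjusted p under 0.05 there were 2 members, both of Mef2a and both higher, beside 8.42% of all tested probe sets in either direction and 5.81% higher. Of the 17, 8 had a positive and 9 a negative difference, with a median of -0.0081, beside 0.068 over all tested probe sets. The other 7 member probe sets, 4 of them of Mef2c, were under the filter and are given as signals. For 3 of the 17 (1421028_a_at of Mef2c, 1437794_at of Cabin1 and 1442623_at of Mef2a) the knockout mean was itself under the filter value of 6.41, so they entered the test through their higher wild type group, and their negative direction carries no weight. Differences below are knockout minus wild type on the scale log2(signal + 20.2), where changes of low signals appear smaller than they are.

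Mef2a, on chromosome 7, encodes a MEF2 factor with broad expression outside muscle. Its probe set 1452347_at had signals of 176 and 164 in wild type libraries 1 and 2. In knockout libraries 1 to 5 they were 304, 676, 741, 307 and 274. All knockout libraries lay above both wild type libraries, in 2 steps: libraries 1, 4 and 5 stood together at 295 ± 18.2 (SD, n = 3), and libraries 2 and 3 at more than 2 times that. The difference was 1.21 (SE 0.43, 95% interval 0.26 to 2.17, limma adjusted p = 0.575).

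A second Mef2a probe set, 1427186_a_at, gave 88.8 and 102 in wild type and 128, 303, 364, 149 and 174 in knockout libraries 1 to 5. Knockout libraries 3 and 2 again led, and the groups did not overlap. Its difference was 0.98 (SE 0.39, 95% interval 0.092 to 1.86, adjusted p = 0.575).

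With 1421252_a_at the signals were 97.0 and 99.4 in wild type and 115, 291, 316, 114 and 166 in knockout libraries. Again no knockout library fell within the wild type values, although libraries 1 and 4 lay close to them. The difference was 0.79 (SE 0.41, 95% interval -0.13 to 1.70, adjusted p = 0.575).

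The brightest Mef2a probe set, 1427185_at, read 215 and 414 in wild type and 375, 882, 867, 462 and 476 in knockout libraries. Here the 2 wild type libraries themselves differed, and knockout library 1 lay between them. The difference was 0.90 (SE 0.41, 95% interval -0.027 to 1.83, adjusted p = 0.575). Without wild type library 1 it was 0.46, and without wild type library 2 it was 1.34. Groups without overlap, knockout higher, were thus found with 3 of the 5 tested Mef2a probe sets, beside 7.8% of all tested probe sets. These readings are not independent, because 1427185_at, 1427186_a_at and 1452347_at are annotated to the same source sequence and all come from the same 7 RNA samples.

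The remaining Mef2a probe sets did not show this pattern. The dim 1442623_at read 100 and 72.5 in wild type and 84.2, 47.3, 115, 38.9 and 32.3 in knockout libraries, a difference of -0.43 (SE 0.40, adjusted p = 0.686). Its groups overlapped, and knockout libraries 2 and 3 were not alike. Probe set 1425426_a_at stayed under the filter, with signals of 5.7 to 17.9 over all 7 libraries. Where on the transcript each probe set lies was not analysed here.

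**Figure D1:**
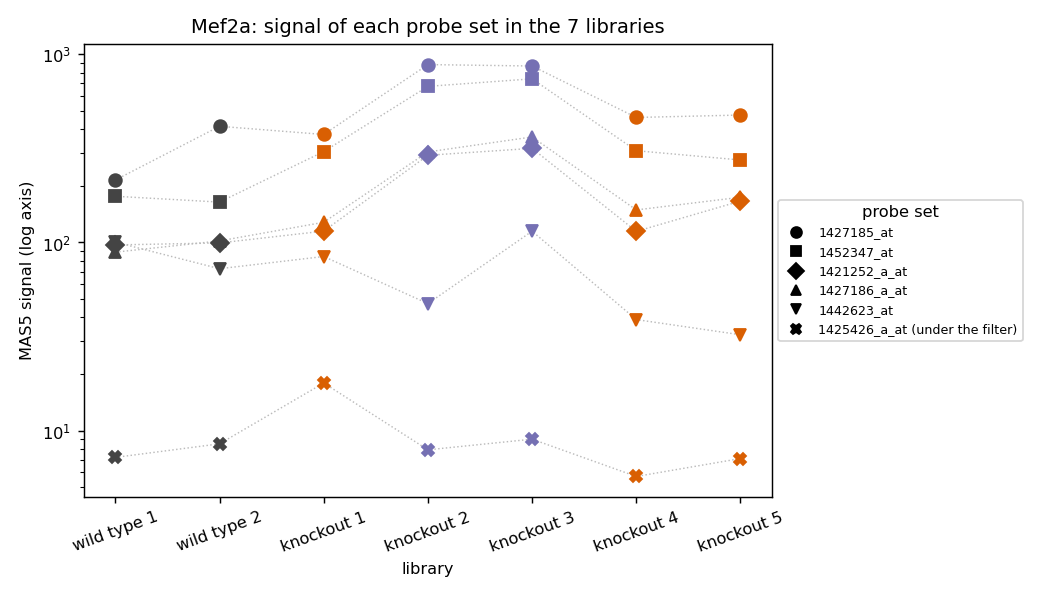
Signal (MAS5 units, log axis) of the 6 Mef2a probe sets in each library; grey points are wild type, orange points knockout libraries 1, 4 and 5, purple points knockout libraries 2 and 3, and dotted lines only join a probe set's points. In the 4 concordant probe sets, knockout libraries 2 and 3 are highest (291 to 882), while 1442623_at and 1425426_a_at do not follow.

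Much of the Mef2a difference came from knockout libraries 2 and 3. Against the wild type mean, 1452347_at stood 1.94 higher in them and 0.73 higher in knockout libraries 1, 4 and 5 on the log2 scale. For 1427186_a_at these values were 1.61 and 0.55, for 1427185_at 1.49 and 0.51, and for 1421252_a_at 1.45 and 0.34. All 4 thus kept a positive difference without those libraries, at a smaller size. Fitted without knockout libraries 2 and 3, 1452347_at differed by 0.73 (SE 0.25, limma adjusted p = 0.820). With that pair as a batch it differed by 0.73 (SE 0.21, adjusted p = 0.477). The 2 differences are equal by construction, because the pair holds no wild type library. Knockout libraries 2 and 3 had the lower 3′ to 5′ ratios given above. They were also higher in most fibroblast markers, Pecam1, Tek, Laptm5 and Tdgf1, and lower in Pou5f1, Nanog, Esrrb and Utf1. The part of these features in the Mef2a values was not tested.

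Mef2b, on chromosome 8, encodes the member best known from germinal centre B cells. Its 1 probe set, 1421541_a_at, varied over 10.5-fold among the libraries. It read 263 and 88.5 in wild type and 56.9, 595, 526, 231 and 95.1 in knockout libraries 1 to 5. Knockout libraries 2 and 3 were the highest of all, whereas knockout library 1 was the lowest, so the groups overlapped. The difference was 0.43 (SE 0.80, 95% interval -1.36 to 2.23, adjusted p = 0.842), and -0.42 without knockout libraries 2 and 3 (adjusted p = 0.893). Among blood markers, the same pair was high in Laptm5 alone. The B cell gene Cd79b read 103 and 75.8 there, below its 108 to 151 elsewhere, and Coro1a 111 and 113, below its 162 to 391. The part of other cells in the Mef2b values was not tested. The probe set shared with Borcs8 did not follow these values. It read 824 and 699 in wild type and 805, 658, 560, 546 and 577 in knockout libraries, a difference of -0.28 (adjusted p = 0.703) that cannot be assigned to either gene.

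Mef2c, on chromosome 13, is needed for heart and vessel formation and is also a neuronal and lymphoid factor. It was dim on every array: 4 of its 5 probe sets were under the filter, with signals of 1.6 to 61.2. The 1 tested probe set, 1421028_a_at, passed the filter through its wild type values. It read 104 and 73.8 in wild type and 64.3, 57.0, 65.3, 52.4 and 61.2 in knockout libraries. All 5 knockout libraries lay just below both wild type libraries and close to one another, beside 5.85% of all tested probe sets with groups apart in that direction. The difference was -0.43 (SE 0.25, 95% interval -0.99 to 0.13, adjusted p = 0.581), and -0.44 without knockout libraries 2 and 3 (adjusted p = 0.832). Without wild type library 1 it was -0.23. Under the filter, 1421027_a_at read 55.4 and 21.3 in wild type and 9.2, 17.3, 18.4, 1.6 and 2.1 in knockout libraries, all below both wild type values. Both its group means were under the filter value and it was not tested, so this direction carries no weight. The other 3 probe sets under the filter, annotated to a single source sequence, overlapped between the groups. Without detection calls such low signals cannot be separated from background. Summed cardiac muscle markers were 1470 to 1798 in wild type and 1270 to 1507 in knockout libraries, with Tnnt2 and Tnni1 under the filter. The single cardiac markers did not move together. Tnni3 was highest in knockout libraries 2 and 3 (366.1 and 350.5, against 84.3 to 153.4 elsewhere). Myh6, Myh7 and Myl7 were lowest in that pair, and the rest above the filter lay within the other values.

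Mef2d, on chromosome 3, encodes a MEF2 factor found in most cell types, and its 3 probe sets did not give 1 answer. The brightest, 1434487_at, read 733 and 711 in wild type and 756, 585, 742, 1124 and 879 in knockout libraries, a difference of 0.14 (SE 0.30, 95% interval -0.53 to 0.82, adjusted p = 0.864). Without knockout library 4 it was 0.021, and without knockout library 2 it was 0.25. Here knockout libraries 2 and 3 were not the high ones, and knockout library 4 was. In contrast, 1437300_at read 950 and 502 in wild type and 334, 319, 325, 568 and 542 in knockout libraries, a difference of -0.75 (SE 0.36, 95% interval -1.56 to 0.063, adjusted p = 0.575). Knockout libraries 1, 2 and 3 were below both wild type libraries, and libraries 4 and 5 lay between them. Leaving out wild type library 1 brought this difference to -0.30. The third, 1421388_at, ranged from 248 to 598 with groups that overlapped, a difference of -0.18 (SE 0.35, adjusted p = 0.853).

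Over all their tested probe sets, the class IIa deacetylases showed no shared direction. With the brightest probe set of each gene the differences were all negative, at -0.0081 for Hdac4, -0.41 for Hdac5 and -0.028 for Hdac7. Hdac4, on chromosome 1, encodes a repressor of chondrocyte and muscle growth through MEF2 and Runx2. Its brightest probe set, 1454693_at, varied least of the 17 tested probe sets. It read 394 and 334 in wild type and 330, 376, 414, 356 and 335 in knockout libraries, with a highest to lowest ratio of 1.26. The difference was -0.0081 (SE 0.24, 95% interval -0.55 to 0.53, adjusted p = 0.992). Probe set 1436758_at read 161 to 288 with groups that overlapped (0.15, SE 0.28, adjusted p = 0.847). The third, 1447566_at, ran from 24.4 in knockout library 4 to 216 in knockout library 1, and its difference of 0.46 (SE 0.62) was smaller than its error (adjusted p = 0.784).

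Hdac5, on chromosome 11, restrains stress-induced growth of the heart and is a target of calcium-dependent kinases. Its probe set 1415743_at read 1357 and 704 in wild type and 706, 715, 726, 925 and 608 in knockout libraries. Wild type library 1 was the highest by far, and wild type library 2 sat below 4 of the 5 knockout libraries. The difference was -0.41 (SE 0.32, 95% interval -1.13 to 0.30, adjusted p = 0.637), and without wild type library 1 it was 0.049. The negative value thus rests on that library. In knockout libraries 1, 2 and 3 the signals lay within 706 to 726, with libraries 2 and 3 beside library 1.

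Hdac7, on chromosome 15, encodes the class IIa deacetylase of endothelium and thymocytes. Its probe set 1420813_at read 392 and 233 in wild type and 258, 315, 315, 260 and 343 in knockout libraries, all 5 between the wild type values. The difference was -0.028 (SE 0.28, 95% interval -0.65 to 0.59, adjusted p = 0.974). Its other probe set, 1420812_at, annotated to the same source sequence, was under the filter at 6.8 to 57.1.

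Cabin1, on chromosome 10, the repressor that joins calcineurin to MEF2, was steady with its bright probe set. With 1433686_at it read 827 and 1001 in wild type and 906, 668, 832, 800 and 825 in knockout libraries, a difference of -0.18 (SE 0.26, 95% interval -0.76 to 0.40, adjusted p = 0.799). Without wild type library 2 it was -0.042, and without wild type library 1 it was -0.31. The lowest signal was that of knockout library 2, and knockout library 3 lay among the rest. The dimmer 1437794_at read 77.6 and 101 in wild type and 44.2 to 88.5 in knockout libraries (-0.41, SE 0.30, adjusted p = 0.627), with its knockout mean under the filter value, and 1440596_at was under the filter.

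**Figure D2:**
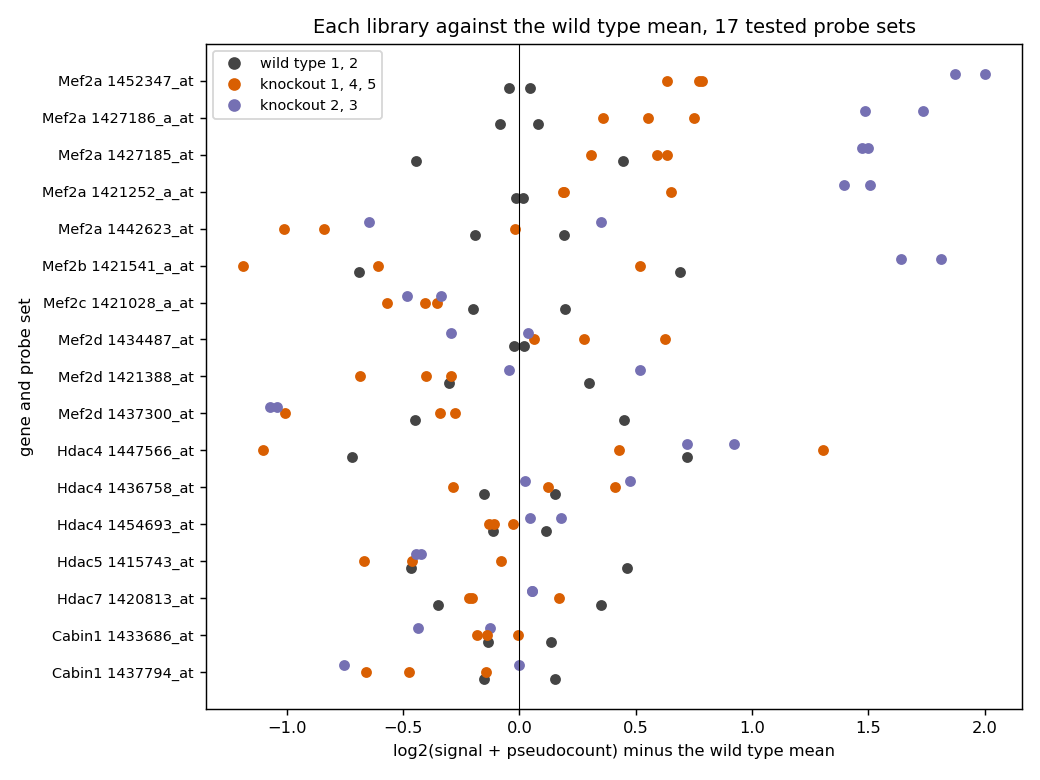
Each library's log2 value minus the wild type mean for the 17 tested probe sets of the 8 genes; grey points are wild type, orange points knockout libraries 1, 4 and 5, purple points knockout libraries 2 and 3. Purple points lie at 1.39 to 2.00 for 4 Mef2a probe sets and at 1.64 and 1.81 for Mef2b, while for the deacetylases and Cabin1 they lie at -0.76 to 0.92.

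**Figure D3:**
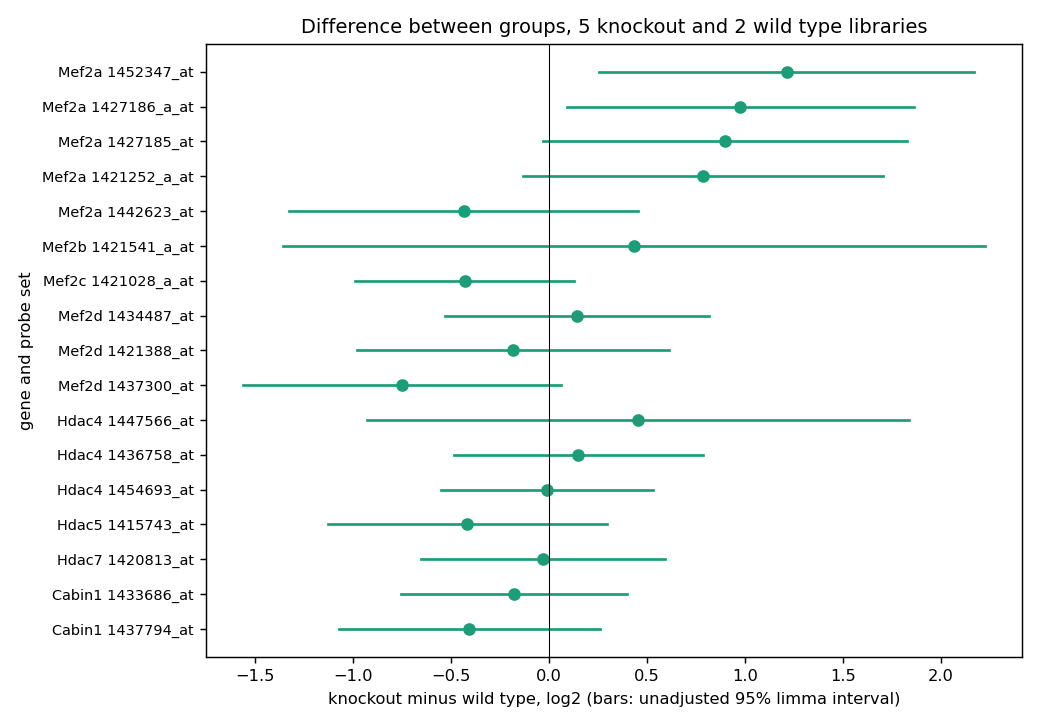
Knockout minus wild type difference (log2, points) with its unadjusted 95% limma interval (bars) for the 17 tested probe sets, from 5 knockout and 2 wild type libraries. The intervals of 1452347_at and 1427186_a_at of Mef2a do not reach 0, those of the other 15 do, and none of the 17 passed after adjustment over all probe sets.

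The genes whose pattern was most like each member's were found by Pearson correlation over the 7 libraries with the brightest tested probe set, among 12423 genes. The points share libraries and, for Mef2a, a pair of libraries far from the rest, so the values are a description. Mef2a was followed most closely by Zfp729b (r = 0.999) and Bmpr1a, a receptor for bone morphogenetic proteins (r = 0.998), and 379 genes were above 0.95. Mef2b was closest to Eef2k (r = 0.998) and Lrp8 (r = 0.993), with 114 genes above 0.95. Hdac5 was closest to Trafd1 (r = 0.993) and Pcbp4 (r = 0.990), with 33 above 0.95. For Mef2c, Mef2d, Hdac4, Hdac7 and Cabin1 between 2 and 12 genes were above 0.95.

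The other genes of the pathway, fixed in 9 lists, were counted with the brightest probe set of each gene. Of 113 genes, 90 were tested and 0 passed (limma adjusted p under 0.05; lowest 0.589), where 0.0152% of all 13120 genes passed. At an unadjusted p under 0.05 there were 7, beside 8.06% of all genes. The median difference over the 90 was -0.070, with 35 positive, beside -0.0041 over all genes.

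All 7 genes for 14-3-3 proteins, which hold phosphorylated class IIa deacetylases in the cytoplasm, had a negative difference, beside 6600 of all 13120 genes. The median of the 7 was -0.43, and 0 of 7 passed the test, at an adjusted or an unadjusted p under 0.05. All 7 were also negative after quantile normalization and after centring on array medians, but without knockout libraries 2 and 3 only 5 of the 7 were, with Ywhaz at 0.047 and Sfn at 0.26. Ywhae and Ywhah had groups that did not overlap, beside 7.44% of all genes with knockout lower. Ywhae read 19793 and 20171 in wild type and 19685, 7026, 7180, 18850 and 14109 in knockout libraries (-0.72, SE 0.43, limma adjusted p = 0.592). Ywhaq read 15753 and 15506 in wild type and 16328, 9118, 8838, 13095 and 12318 in knockout libraries (-0.43, SE 0.27, adjusted p = 0.596). In both genes knockout libraries 2 and 3 were the lowest, and without them the list's median was -0.14.

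Of the kinases that phosphorylate class IIa deacetylases, 10 of 16 differences were positive and 0 passed. The median was 0.10, but -0.037 after quantile normalization and -0.017 after median centring. Prkd3, a protein kinase D gene, read 934 and 887 in wild type and 1168, 1431, 1453, 1286 and 1211 in knockout libraries (0.51, SE 0.24, adjusted p = 0.589). Its groups did not overlap, beside 6.41% of all genes with knockout higher, and the difference without knockout libraries 2 and 3 was 0.42. Sik3, a salt-inducible kinase gene, stood at 0.19 (adjusted p = 0.774). Camk1d, a calmodulin-dependent kinase gene chosen after its values were seen, read 132 and 364 in wild type and 409, 712, 817, 398 and 371 in knockout libraries (1.14, SE 0.44, adjusted p = 0.589).

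The MAP kinase arm, which phosphorylates MEF2 itself, had 5 positive and 5 negative differences, with 0 of 10 called. The median was 0.058, but -0.032 after quantile normalization and -0.060 after median centring. Mapk14, the p38 alpha gene, stood at -0.53 (adjusted p = 0.631; -0.12 without knockout libraries 2 and 3) and Map2k3 at 0.12 (adjusted p = 0.898; 0.48 without that pair). Mapk13, the p38 delta gene, chosen after its values were seen, read 331 and 260 in wild type and 663, 697, 668, 713 and 430 in knockout libraries. All 5 knockout libraries were higher, and libraries 2 and 3 were level with libraries 1 and 4. Its difference was 1.04 (SE 0.28, adjusted p = 0.589), and 0.96 without knockout libraries 2 and 3. Map2k5 (0.70) and Map3k2 (0.67), kinases upstream of the MEF2 kinase ERK5, were also higher in all 5 knockout libraries. Neither passed (limma adjusted p = 0.589 for each), and both were also chosen after their values were seen. Groups apart with knockout higher were thus found in 3 of the 10 genes, beside 6.41% of all genes. As the list was chosen with earlier results of these data known, this count carries no weight. Of 2 others named after their values were seen, Map2k6, a p38 kinase kinase gene, stood at -1.02 (SE 0.54, adjusted p = 0.589; -0.40 without knockout libraries 2 and 3). The ERK5 gene Mapk7 stood at -0.38 (adjusted p = 0.788; 0.14 without that pair).

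Among genes known as MEF2 targets in muscle, neurons or endothelium, 8 of 19 differences were positive, the median was -0.064 and 0 passed. This median was -0.23 after quantile normalization, -0.18 after median centring and 0.10 without knockout libraries 2 and 3. The bright ones, Klf2 and Klf4, which in stem cells also serve naive pluripotency, stood at -0.53 (adjusted p = 0.662; -0.022 without knockout libraries 2 and 3) and 0.62 (adjusted p = 0.624). Wild type Klf4 read 1230 and 4259, with all 5 knockout libraries between. Bdnf, a neurotrophin gene under MEF2 control in neurons, was chosen after its values were seen. It read 20.3 and 58.2 in wild type and 140, 195, 190, 117 and 150 in knockout libraries, a difference of 1.64 (SE 0.32, 95% interval 0.92 to 2.36, adjusted p = 0.589). Both wild type values were under the filter value, so Bdnf entered the test through its knockout group. The groups did not overlap, beside 6.41% of all genes with knockout higher. As Bdnf was picked by its values and passed the filter through its knockout group, this carries no weight. Without knockout libraries 2 and 3 the difference was 1.46. In the other direction, the early response gene Egr1, also chosen after its values were seen, differed by -1.53 (SE 0.60, adjusted p = 0.589) and by -0.88 without knockout libraries 2 and 3. Knockout library 4, at 3241, lay within its wild type values of 4248 and 2999.

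The remaining lists held no called gene either. Class I deacetylases and their corepressors had a median of -0.065 over 8 genes. It was 0.041 without knockout libraries 2 and 3, -0.13 after quantile normalization and -0.18 after median centring. Hdac1 stood at -0.59 (-0.12 without that pair) and Hdac2 at -0.0059 (0.49 without that pair). Wild type Hdac2 read 3197 and 7187, and knockout libraries 1, 4 and 5 lay between these values. Coactivators and repressor partners of MEF2 had a median of -0.19 over 15 genes (-0.020 without knockout libraries 2 and 3, -0.31 after median centring), with Ctbp2 at -0.26. The acetyltransferase gene Kat2b stood at 0.46, with wild type signals of 1676 and 4912 and all 5 knockout libraries between them. Calmodulin and calcineurin genes with the NFAT factors had a median of 0.056 over 8 genes (-0.063 after median centring), with the calcineurin subunits Ppp3cb at 0.26 and Ppp3r1 at -0.13. Of the 3 other class II deacetylases, Hdac6 stood at 0.056 and Hdac10 at -0.0034 (-0.41 without knockout libraries 2 and 3). Hdac9 was under the filter. Of the muscle lineage factors that act with MEF2, 5 of 12 were bright enough to test. Their median was -0.49, with 4 of 5 negative, and -0.33 without knockout libraries 2 and 3, with 3 of 5 negative. It was -0.62 after quantile normalization and -0.60 after median centring. Hand1 stood at -0.64 (limma adjusted p = 0.589) and Gata6 at -0.53 (adjusted p = 0.687).

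**Figure D4:**
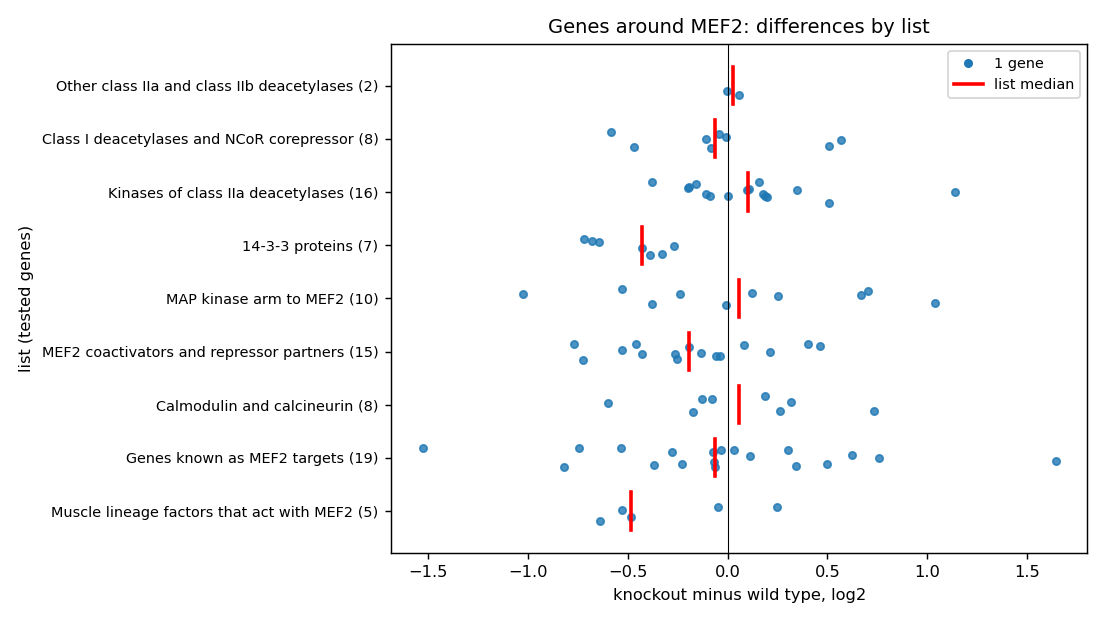
Knockout minus wild type difference (log2) of each tested gene (points, with vertical jitter) in the 9 lists, with the list median as a red line and the number of tested genes beside each name. The 14-3-3 genes all lie below 0, Bdnf is the rightmost point at 1.64 and Egr1 the leftmost at -1.53; none passed the test.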

How the data were processed

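The authors deposited 1 intensity per probe set for each of 7 arrays, computed with MAS5 per the submitters' processing notes; no version is named there. The mean without the lowest and highest 2% was 500.0 on every array, and array medians ran from 92.6 to 124.9, and they were not scaled again. Before the log2 step a pseudocount of 20.2 (the 20th percentile of the signals) was added. After 64 control probe sets were set aside, the 27022 with a mean above the 40th percentile were fitted with limma 3.58.1 in R 4.3.3 (lmFit, eBayes with a trend, two-sided, Benjamini-Hochberg over all). The fit was also run on simulated data with independent errors in each library. Those data held no pair of libraries set apart from the rest, so they do not test the fit in that respect. The number of arrays limits the precision. Pathway genes were represented by their brightest probe set. In each list the 2 brightest genes were named, as no gene passed; the text marks each gene picked with its values in view. For likeness, the 2 genes of highest correlation were named. Promoters came from RefSeq, and figures from matplotlib 3.10.9. Alternatives were other normalizations, filters, pseudocounts and variance models, array weights, the replicate number as a block, leaving out libraries, and a batch term. The batch term marked knockout libraries 2 and 3, a pair set apart by its values and not by a label. Members and lists were chosen with earlier results of these data known.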

Additional observations from a re-analysis of the deposited data

How the results depend on the processing

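In 317 refits of the 17 tested member probe sets, 0 reached a limma adjusted p under 0.05. Of the 17, 9 never changed sign. Among these were the 4 concordant Mef2a probe sets, positive throughout, and 1442623_at of Mef2a, negative throughout at -0.63 to -0.24. With a lone wild type library, that library is assumed to vary like the knockout group. In 16 refits a difference changed sign, none of them called. Hdac4 1436758_at was -0.010 under quantile normalization. Mef2b was -0.065 with array weights, and -0.42 without knockout libraries 2 and 3 or with these as a batch term. The last 2 fits give the same difference by construction. Leaving out single libraries gave -0.0028 to 0.30 for Hdac4 1436758_at, -0.26 to 1.18 for 1447566_at and -0.12 to 0.10 for 1454693_at. It gave -0.88 to 0.049 for Hdac5, -0.38 to 0.32 for Hdac7, -0.26 to 1.13 for Mef2b and -0.48 to 0.12 for Mef2d 1421388_at. Replicate numbers were not used to pair the samples in the main fit. Deviations from the group means correlated at 0.11 and -0.0098 in the 2 same-numbered pairs. With 2 wild type libraries these deviations mirror each other, so the check cannot decide if the samples were paired. With the replicate block, Mef2d 1434487_at was -0.12, and 15 probe sets and 42 genes passed, with 0 members called. Replicates 3 to 5 exist only in the knockout group, so that fit compares the groups within the 2 same-numbered pairs alone. Its variance is largely borrowed across probe sets, and its higher counts carry little weight. The count of probe sets past the threshold, 8, was 5 with no filter, 4 at the 60th percentile, 5 without knockout libraries 2 and 3, and 0 to 7 without single libraries. The count of genes, 2, was 1 with either filter, 1 without knockout libraries 2 and 3, 7 with these as a batch term, and 0 to 2 without single libraries. The Calr difference was -3.78 to -3.52 without single libraries, and did not pass limma's threshold when wild type library 1 (-3.58, adjusted p = 0.254) or 2 (-3.78, adjusted p = 0.129) was left out. Centring arrays on their medians moved the median difference of all probe sets from 0.068 to -0.050. Apart from fewer samples or probe sets, the cause of these shifts was not tested. Low signals without detection calls limit what can be said of Mef2c.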

Other observations

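The MEF2 box at the start of Mef2a and Hdac5 was found in 3.70% of the genes in the promoter table. Of these, 217 were tested on the arrays, and 49.3% had a positive difference, beside 49.3% of the 10387 tested genes without a box. The median differences were -0.014 and -0.0085, and 0 genes with a box passed the limma threshold. This count was chosen after the data were seen and is a description of both gene sets.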
